A study of Mus musculus with 27 samples.

Results

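Voltage-gated sodium and calcium channels are described here through 40 of the 22340 genes in a count table of mouse cortex after a stroke. The members were chosen by symbol alone: Scn followed by a number and a or b, or Cacn followed by a, b or g. This rule uses no measured value, but it was set with earlier results of these data known. Of the 40 genes, 14 encode sodium channel subunits (10 pore-forming alpha subunits and 4 beta subunits). The other 26 encode calcium channel subunits: 10 pore-forming alpha1, 4 alpha2delta, 4 beta and 8 gamma. The alpha subunit gene now named Scn2a stands in the table under its older symbol, Scn2a1.

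RNA was sequenced from the cortex of wild-type C57BL6 mice aged 7 to 8 weeks. A suture advanced to the right middle cerebral artery blocked it for 35 min, and the cortex was taken after 3, 6, 12 or 24 h of reperfusion, the return of blood flow. The groups were ipsilateral cortex (the occluded side) and contralateral cortex of these animals at each of the 4 times, and cortex after sham surgery, in which the arteries were exposed but no suture was inserted. Each of the 9 groups had 3 libraries, from 3 distinct surgery days. The 3 sham libraries carry no time here, and the same 3 were the reference at all 4 times. The sources used here do not give the hemisphere of the sham cortex, nor whether animals were pooled or both sides of 1 day came from 1 mouse.

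A voltage-gated channel opens when the membrane is depolarized. Sodium channels carry the upstroke of the action potential: an alpha subunit forms the pore, and beta subunits, which are also adhesion proteins, set its gating and surface level. In calcium channels the alpha1 subunit forms the pore and fixes the current type, the beta and alpha2delta subunits bring the channel to the membrane, and calcium entry triggers transmitter release and signals to the nucleus. Most of the gamma genes encode proteins better known as regulators of AMPA-type glutamate receptors. In ischaemia, energy failure depolarizes neurons, and sodium and calcium flow in through these channels among other routes.

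Library totals ran from 26505996 to 48830897 counts, and 39 of the 40 members were among the 18087 genes abundant enough to test. Scn4a, the skeletal muscle alpha subunit, had 0 to 24 counts per library and was not tested. Cortical identity was checked with marker genes: the summed level of 7 excitatory neuron markers ran from 776 to 1432 CPM (counts scaled to a common library size by TMM normalization) over the 27 libraries. The summed level of 8 choroid plexus markers ran from 3.92 to 726 CPM and that of 10 striatal markers from 187 to 701 CPM. Whether the libraries differed in how much of these neighbouring tissues they held was not tested. Contralateral replicate 1 at 3 h stood apart: over 31 abundant members, the log2 ratio of its CPM to the other replicates had a correlation with transcript GC content of r = -0.67, a description across genes that share that library. The median log2 ratio was -0.38 over its GC-rich members and 0.37 over its GC-poor ones. Ipsilateral replicate 1 at 6 h had r = -0.71 with medians of -0.12 and 0.21, and replicate 3 of that group had r = 0.58, so GC content also moved with libraries of the 6 h comparison, and its part there was not tested.

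In contralateral replicate 1 at 3 h Cacna2d1 had 607 CPM, against 340.0 and 354 CPM in replicates 2 and 3. Ipsilateral replicate 1 at 24 h held the highest share of mitochondrial ribosomal RNA, 40.4% of its counts, where the lowest library held 24.4%. It and the GC-shifted 3 h contralateral library are those said below to have stood apart.

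Per length, Scn2b and the main brain alpha subunits were among the most abundant members in sham cortex. On the RPKM scale (reads per kilobase of exon, scaled to a common library size), the level of Scn2b, a beta subunit bound to the alpha subunit by a disulphide bridge, was 67.1 ± 4.23 (SD, n = 3 here and in every group below). That of Scn2a1 was 65.5 ± 3.06 RPKM, and their sham libraries overlapped. Scn8a stood at 38.9 ± 2.73 RPKM, with all 3 sham libraries above those of the next gene in the order, Cacnb3. Scn1a stood at 30.8 ± 2.39 RPKM, within the range of its neighbours Cacnb3, Scn4b and Cacna2d1.

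Among the alpha1 genes, the level of Cacna1e (R-type) was 26.1 ± 2.35 RPKM, that of Cacna1b (N-type) 23.7 ± 2.45, that of Cacna1i (T-type) 20.4 ± 1.52 and that of Cacna1a (P/Q-type) 17.5 ± 1.55 RPKM, and the libraries of Cacna1b overlapped those of Cacna1e. The L-type genes Cacna1c and Cacna1d stood lower, at 6.71 ± 0.904 and 5.90 ± 0.648 RPKM, and overlapped each other. At the low end were genes known from other tissues: Cacna1s of skeletal muscle (0.106 ± 0.0490 RPKM), Cacna1f of the retina (0.0620 ± 0.0215 RPKM), and Scn10a and Scn11a of sensory neurons (0.0906 ± 0.0195 and 0.0493 ± 0.0156 RPKM). The sham libraries of neighbouring genes overlapped through most of the order, so that the ranks within a cluster of similar levels are not resolved.

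**Figure D1:**
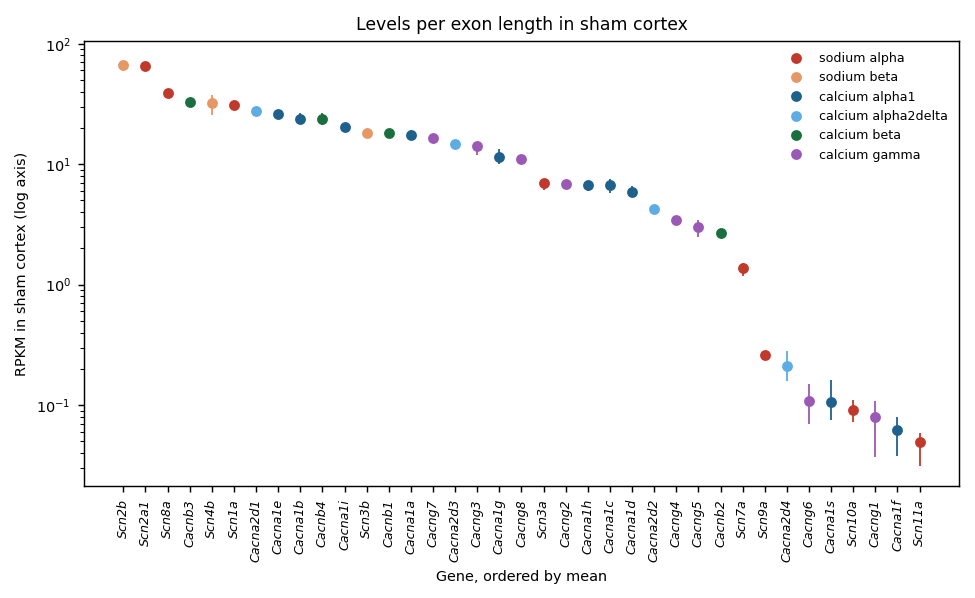
Level per exon length of 37 member genes in sham cortex (vertical, RPKM on a log axis), with genes ordered by their mean along the horizontal axis and coloured by role. Points are means of 3 libraries and vertical lines run from the lowest to the highest library; Scn4a, with 0 counts in some sham libraries, is not drawn. Scn2b stands highest of those drawn, at 67.1 RPKM, and Scn11a lowest, at 0.0493 RPKM.

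Comparing the ipsilateral with the contralateral cortex at each time asks what the occluded side did against the other side of animals with the same surgery. Sodium channel subunits made up most of what was lower on the ipsilateral side at 24 h. Among them were the alpha subunit genes Scn1a, Scn2a1, Scn8a and Scn10a and the beta subunit genes Scn2b and Scn3b. The calcium channel genes, Cacna1e, Cacna1i, Cacna2d3, Cacnb4 and Cacng8, were lower with them. Scn11a alone was higher at 24 h, and Cacna1h alone at 12 h. In counts of members, fell and rose mean lower and higher than the compared group, not a change over time. Scn10a was thus counted as a fall at 24 h, although its ipsilateral mean (1.37 CPM) was above sham (0.722 CPM), with 3.54 CPM on the contralateral side.

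At 3 h, 0 of 39 members passed the quasi-likelihood F-test of edgeR (adjusted p under 0.05), where 0.249% of all genes passed. An unadjusted p under 0.05 was found for 11 members, a count not made over all genes, and DESeq2 also called 0. At 6 h, 6 of 39 fell and 0 rose, where 2.14% of all genes fell and 5.85% rose. At 12 h, 9 fell and 1 rose, where 4.3% of all genes fell and 7.94% rose. At 24 h, 12 fell and 1 rose, where 9.36% of all genes fell and 9.74% rose.

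The share of members that fell, 15.4%, 23.1% and 30.8% at 6, 12 and 24 h, was thus above the share of all genes at each of these times, and the share that rose was below it. The median log2 fold change of the 39 members was -0.14, -0.21, -0.16 and -0.21 at 3, 6, 12 and 24 h, beside 0.00, -0.02, -0.01 and 0.03 over all tested genes. Except for Scn10a, the log2 fold changes of the falls described here ran from -0.70 to -0.37.

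Within surgery days, 13, 17, 18 and 19 of the 39 members were lower on the ipsilateral side on all 3 days at 3, 6, 12 and 24 h, and 1, 3, 8 and 2 were higher on all 3. These counts were not made over all genes, so how far they exceed the common share is not known. In whole cortex, fewer cells of a type and less RNA per cell cannot be told apart.

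The counts rest on few libraries. The limits given with each gene below are mostly for 1 library left out, and leaving out a whole surgery day ended more calls. At 6 h the number that fell was 3, 3 and 2 without contralateral replicate 1, 2 or 3, and 3 and 0 without ipsilateral replicate 1 or 2. At 12 h it was 5 without ipsilateral replicate 1, and without all libraries of surgery day 2 or day 3 it was 0 and 2 at 6 h, 4 and 4 at 12 h, and 3 and 5 at 24 h. Without both libraries that stood apart, it was 9, 13 and 12 at 6, 12 and 24 h. Those were a 3 h contralateral and a 24 h ipsilateral library. No 6 h library was left out, so the 9 does not show what ipsilateral replicate 1 at 6 h contributed.

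**Figure D2:**
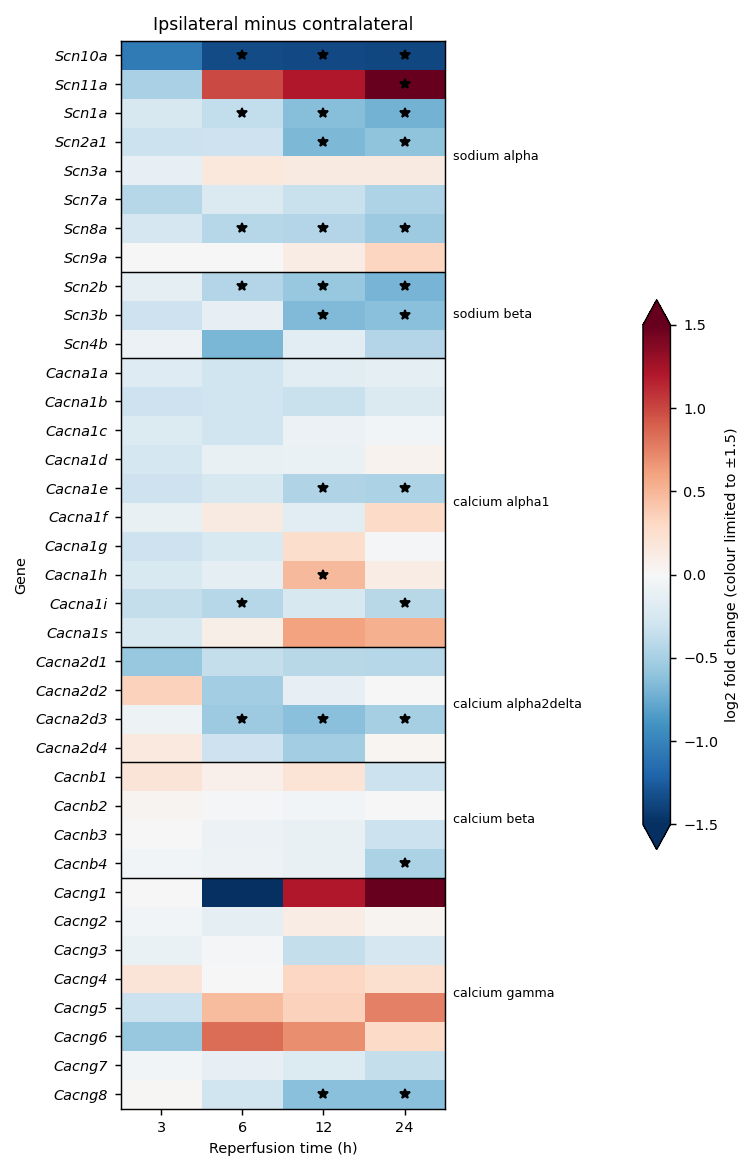
Log2 fold change of 37 tested member genes, ipsilateral minus contralateral (colour, limited to 1.5 either way; blue is lower on the ipsilateral side), by reperfusion time in hours (horizontal) and gene (vertical), grouped by role. Stars mark an adjusted p under 0.05 in edgeR's quasi-likelihood F-test: 0, 6, 10 and 12 of the genes drawn at 3, 6, 12 and 24 h. Strong colours without stars include genes with few counts, such as Cacng1, and genes whose libraries spread widely, such as Scn4b at 6 h.

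Some pan-neuronal and excitatory neuron markers were also lower on the ipsilateral side from 6 h on. Of all tested genes, 2.14%, 4.3% and 9.36% fell at 6, 12 and 24 h. Of 10 pan-neuronal markers, 0, 3, 3 and 7 fell on the ipsilateral side at 3, 6, 12 and 24 h and 0 rose, with medians of 0.05, -0.21, -0.26 and -0.60 on the log2 scale. Their summed level at 24 h was 3570.4 to 4153 CPM in ipsilateral libraries, against 4907 to 5379 CPM in contralateral libraries, without overlap. Of 7 excitatory neuron markers, 0, 1, 3 and 4 fell, with sums at 24 h of 776 to 952 CPM in ipsilateral libraries, against 1287 to 1381 CPM in contralateral libraries.

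Syp, a synaptic vesicle protein, changed by -0.72 and Slc17a7, the vesicular glutamate transporter of cortical excitatory neurons, by -0.72 (log2 fold changes at 24 h, edgeR's quasi-likelihood F-test, adjusted p = 3.36e-05 and 8.57e-05). Of 7 interneuron markers 1 fell at 24 h, Pvalb, a calcium-binding protein of fast-spiking cells, by 0.99. The summed interneuron markers overlapped at 24 h, with 553, 399 and 354 CPM in ipsilateral and 516, 472 and 455 CPM in contralateral libraries. The falls of the sodium channel genes at 24 h were of similar size to those of Syp and Slc17a7, and the part of the neuronal markers in them was not tested. At 12 h the medians of the neuronal and excitatory lists were -0.26 and -0.27, beside a median of -0.16 over the 39 members. Scn1a and Scn2a1 changed by -0.64 and -0.67 at 12 h, but they were among the larger falls of members chosen by their calls. Such values cannot be weighed against the medians of whole lists, and the part of the markers in them was not tested.

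Of the 4 alpha subunits known as the brain sodium channels, Scn1a, Scn2a1 and Scn8a fell and Scn3a did not pass the test at any time. Scn1a, the alpha subunit best known from inhibitory interneurons and from Dravet syndrome, had 267, 217 and 206 CPM in ipsilateral cortex at 24 h, against 411, 327 and 387 CPM in contralateral cortex (log2 fold change -0.70, SE 0.11, adjusted p = 9.22e-05 in edgeR's quasi-likelihood F-test, which gives all adjusted p below). At 12 h it had 246, 253 and 249.5 CPM in ipsilateral cortex, against 382, 408 and 372 CPM in contralateral cortex (log2 fold change -0.64, SE 0.11, adjusted p = 0.000349). All 3 ipsilateral libraries lay below all 3 contralateral ones at both times, and the 12 h ipsilateral libraries agreed within a few CPM.

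At 6 h the difference in Scn1a was smaller, with 307, 273 and 253 CPM in ipsilateral and 358, 356 and 363 CPM in contralateral cortex (log2 fold change -0.37, SE 0.11, adjusted p = 0.0367), again without overlap. Scn1a at 6 h did not pass without ipsilateral replicate 2 or 3 or contralateral replicate 1 or 2 or 3 (adjusted p from 0.0866 to 0.139). Without all libraries of surgery day 2 or day 3 its adjusted p was 0.384 and 0.295. At 3 h the means were 341 ± 20.7 CPM in ipsilateral and 403 ± 51.6 CPM in contralateral cortex, which did not pass the test. Across the 4 times the ipsilateral mean of Scn1a stepped down from one time to the next, 341, 278, 249 and 230.3 CPM at 3, 6, 12 and 24 h. The contralateral means, 403, 359, 387 and 375 CPM, showed no such order.

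Scn2a1, the alpha subunit of excitatory neurons and of the axon initial segment early in development, had 563, 519 and 459.7 CPM in ipsilateral cortex at 24 h, against 828, 832 and 688 CPM in contralateral cortex (log2 fold change -0.61, SE 0.14, adjusted p = 0.00258). At 12 h it had 567, 610.0 and 539.7 CPM in ipsilateral cortex, against 1030.0, 828 and 879 CPM in contralateral cortex (log2 fold change -0.67, SE 0.14, adjusted p = 0.00155). The groups did not overlap at either time. At 6 h they did, with ipsilateral replicate 1 the highest ipsilateral library: 817, 622 and 595 CPM in ipsilateral and 932, 767 and 829 CPM in contralateral cortex (log2 fold change -0.31, adjusted p = 0.163).

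Scn8a, the alpha subunit of mature axon initial segments and nodes of Ranvier, had 416, 402 and 336 CPM in ipsilateral cortex at 24 h, against 566, 557 and 558 CPM in contralateral cortex (log2 fold change -0.54, SE 0.10, adjusted p = 0.000624). It was already lower at 6 h, with 533, 458 and 463 CPM in ipsilateral and 670.3, 629 and 652 CPM in contralateral cortex (log2 fold change -0.42, SE 0.10, adjusted p = 0.00912). At 12 h its means were 454 ± 8.23 CPM in ipsilateral and 615 ± 56.3 CPM in contralateral cortex (log2 fold change -0.44, SE 0.10, adjusted p = 0.0054). The groups of Scn8a did not overlap at any of the 3 times. Scn8a at 6 h did not pass without ipsilateral replicate 2 (adjusted p = 0.0761). It did not pass either without all libraries of surgery day 2 or day 3 (adjusted p = 0.347 and 0.0762). At 12 h its call ended without those of day 2 (adjusted p = 0.122). Scn3a, the alpha subunit that prevails before birth, had 87.0, 92.4 and 76.5 CPM in ipsilateral and 73.9, 98.2 and 61.4 CPM in contralateral cortex at 24 h, which overlapped (log2 fold change 0.13, adjusted p = 0.642).

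Scn1a, Scn2a1 and Scn3a are neighbours in 1 cluster on chromosome 2 with Scn7a and Scn9a, whose log2 fold changes at 24 h were -0.46 and 0.33 and did not pass. The calls at 12 h for Scn1a and Scn2a1 and at 24 h for Scn1a and Scn8a passed under all 17 other settings tried; that for Scn2a1 at 24 h ended only without all libraries of surgery day 2 (adjusted p = 0.0759).

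**Figure D3:**
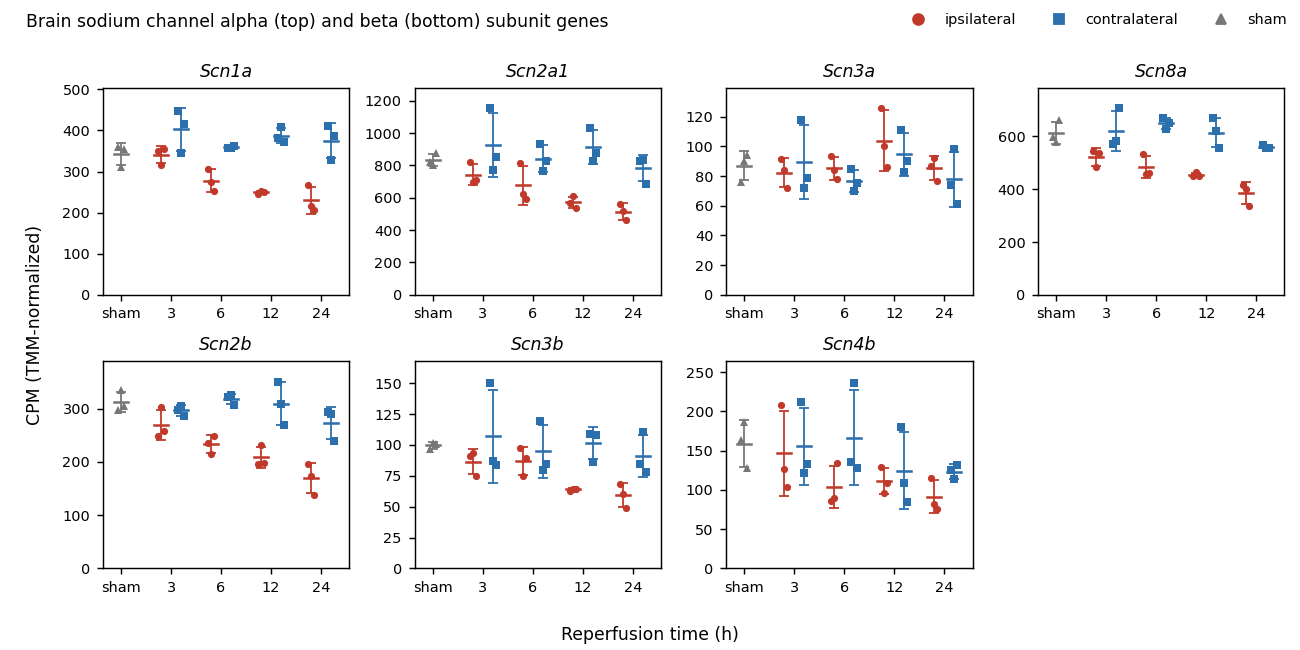
CPM (vertical, from 0) of 7 sodium channel subunit genes in sham cortex and by reperfusion time in hours (horizontal), with ipsilateral libraries as red circles to the left of contralateral libraries as blue squares, and sham as grey triangles. Horizontal bars are means and error bars SD of 3 libraries. Ipsilateral Scn1a, Scn8a and Scn2b lie below contralateral libraries at 6, 12 and 24 h, and Scn3a overlaps at every time.

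Of the beta subunits, Scn2b and Scn3b were lower on the ipsilateral side at 24 h and Scn4b did not pass at any time. Scn2b had 195, 174 and 139 CPM in ipsilateral cortex at 24 h, against 293, 289 and 239 CPM in contralateral cortex (log2 fold change -0.69, SE 0.12, adjusted p = 0.000219). It was lower at 12 h (log2 fold change -0.57, SE 0.12, adjusted p = 0.00209) and at 6 h (log2 fold change -0.44, SE 0.12, adjusted p = 0.0188). The means at 6 h were 233 ± 17.3 CPM in ipsilateral and 318 ± 9.07 CPM in contralateral cortex. The ipsilateral and contralateral libraries of Scn2b did not overlap at 6, 12 or 24 h.

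Scn3b, which pairs non-covalently with alpha subunits in the forebrain, had 68.2, 60.4 and 49.1 CPM in ipsilateral cortex at 24 h, against 84.7, 111 and 77.7 CPM in contralateral cortex (log2 fold change -0.62, SE 0.18, adjusted p = 0.0185). The groups were separated at 24 h, and Scn3b also passed at 12 h, with 62.7, 64.5 and 64.7 CPM in ipsilateral and 109, 86.5 and 108 CPM in contralateral cortex (log2 fold change -0.66, SE 0.18, adjusted p = 0.0175). Scn4b, a beta subunit of resurgent current that is abundant in the striatum, had 116, 82.2 and 76.2 CPM in ipsilateral and 126, 113 and 131 CPM in contralateral cortex at 24 h (adjusted p = 0.363). The summed striatal markers ran from 187 to 404 CPM in ipsilateral and from 189 to 375 CPM in contralateral libraries at that time.

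Scn2b and Scn4b lie next to each other on chromosome 9. The call of Scn2b at 24 h passed under all 17 other settings. Scn2b at 6 h did not pass without ipsilateral replicate 1 or 2 or contralateral replicate 1 or 2 (adjusted p from 0.0546 to 0.135). Scn3b at 12 h did not pass without ipsilateral replicate 1 or 3 or contralateral replicate 1 or 3 (adjusted p from 0.052 to 0.0755). Scn3b at 24 h did not pass without ipsilateral replicate 3 or contralateral replicate 2 (adjusted p from 0.0916 to 0.113).

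Scn10a and Scn11a, the tetrodotoxin-resistant alpha subunits of pain-sensing neurons, were rare in cortex and moved in ways of their own. Scn10a was lower in ipsilateral than in contralateral cortex at 6, 12 and 24 h, but its level was higher at later times on both sides. Its counts at 24 h were 50, 41 and 79 in ipsilateral libraries and 125, 172 and 169 in contralateral libraries, where sham libraries had 25, 39 and 24. In CPM, Scn10a had 1.37, 1.14 and 1.58 in ipsilateral and 2.65, 4.03 and 3.93 in contralateral cortex at 24 h, and 0.579, 0.887 and 0.700 in sham cortex. Every contralateral library at 24 h lay above every ipsilateral and every sham library.

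The contralateral means of Scn10a were 0.686 ± 0.354, 1.59 ± 0.408, 2.13 ± 0.547 and 3.54 ± 0.765 CPM at 3, 6, 12 and 24 h. The ipsilateral means were 0.336 ± 0.0898, 0.622 ± 0.121, 0.826 ± 0.200 and 1.37 ± 0.219 CPM. Both series were ordered by time. Ipsilateral against contralateral, Scn10a passed at 6 h (log2 fold change -1.34, SE 0.33, adjusted p = 0.00889), at 12 h (log2 fold change -1.36, SE 0.32, adjusted p = 0.00477) and at 24 h (log2 fold change -1.36, SE 0.30, adjusted p = 0.00241). These log2 fold changes were close to each other, and the test for a difference of the effect over the 4 times gave an adjusted p of 0.962.

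Contralateral against sham, Scn10a was the only member that passed at any time: log2 fold change 1.55, SE 0.32, adjusted p = 0.024 at 12 h and log2 fold change 2.28, SE 0.32, adjusted p = 0.0016 at 24 h. In this comparison 0.238% of all genes passed at 12 h and 0.111% at 24 h, 0.094% and 0.0276% with a rise. At 3 and 6 h 0 members passed, where 0.0111% and 0.0332% of all genes did; 3 and 1 members had an unadjusted p under 0.05, and DESeq2 also called 0. No list of cell type markers had a member that passed in contralateral against sham cortex at 24 h. With 0.111% of all genes passing there, lists this short cannot decide whether the mix of cells differed. The summed pan-neuronal markers ran from 4907 to 5379 CPM in contralateral and from 4992 to 5496 CPM in sham libraries.

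Contrasts of 24 h against 3 h within a side were added after these values were seen. On the contralateral side Scn10a was the only member among 57 genes that passed (log2 fold change 2.35, SE 0.33, adjusted p = 0.000615). On the ipsilateral side it was 1 of 2739 genes that passed (log2 fold change 2.05, SE 0.36, adjusted p = 0.000376). Ipsilateral against sham, its log2 fold change was -1.13 at 3 h (adjusted p = 0.221) and 0.92 at 24 h (adjusted p = 0.0407).

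Scn10a at 6 h did not pass without ipsilateral replicate 1 or 2 or contralateral replicate 3 (adjusted p from 0.0517 to 0.0592). Against sham, contralateral Scn10a at 12 h did not pass without contralateral replicate 1 or 3 or sham replicate 1 or 2 or 3 (adjusted p from 0.0516 to 0.253). Ipsilateral Scn10a at 24 h did not pass without ipsilateral replicate 1 or 3 or sham replicate 1 or 3 (adjusted p from 0.0778 to 0.162). Its adjusted p was 0.053 with only the compared groups in the fit. Contralateral Scn10a at 24 h passed without any 1 library but not without all libraries of surgery day 2 or of day 3 (adjusted p = 0.156 and 0.0832).

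Scn11a was the reverse: it was higher on the ipsilateral side at 24 h, with 44, 29 and 80 counts in ipsilateral libraries and 8, 10 and 17 counts in contralateral libraries. In CPM these were 1.21, 0.809 and 1.60 in ipsilateral and 0.170, 0.234 and 0.395 in contralateral cortex (log2 fold change 2.18, SE 0.61, adjusted p = 0.0122), and sham cortex had 0.185, 0.341 and 0.350. All 3 ipsilateral libraries at 24 h lay above all contralateral libraries of that time and all sham ones. The ipsilateral means of Scn11a were 0.312 ± 0.219, 0.667 ± 0.114, 0.785 ± 0.146 and 1.21 ± 0.396 CPM at 3, 6, 12 and 24 h, and the contralateral means 0.462, 0.330, 0.347 and 0.266 CPM without a trend.

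Within the ipsilateral side, 24 h against 3 h passed for Scn11a (log2 fold change 1.88, SE 0.60, adjusted p = 0.0337). Markers of infiltrating myeloid cells also moved on that side: 2 of 6 rose at 24 h, where 9.74% of all genes rose. Their summed levels were 38.8, 13.6 and 7.01 CPM in ipsilateral libraries 1, 2 and 3 and 5.97 to 8.96 CPM in contralateral libraries. The highest myeloid sum was in replicate 1 and the highest Scn11a level in replicate 3, and the part of these cells in Scn11a was not tested. Scn11a at 24 h did not pass without ipsilateral replicate 3 or contralateral replicate 1 (adjusted p from 0.0531 to 0.0674). With genes required to reach 1 CPM in 3 libraries, it was not tested.

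**Figure D4:**
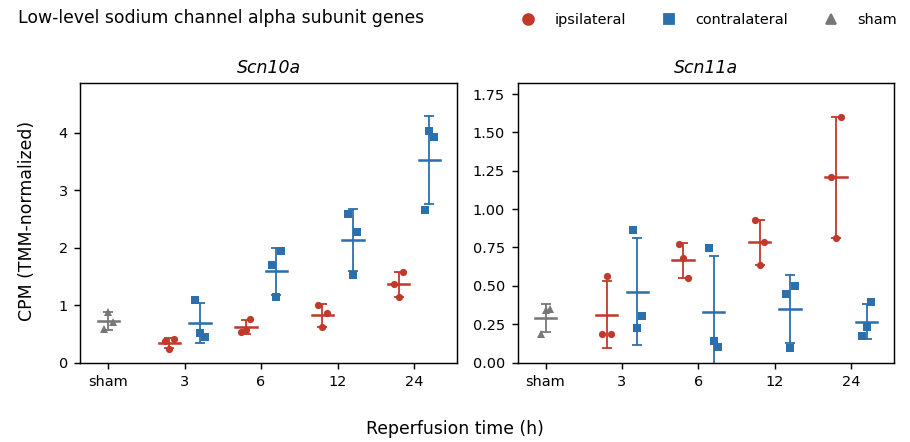
CPM (vertical, from 0) of Scn10a and Scn11a in sham cortex and by reperfusion time in hours (horizontal), with ipsilateral libraries as red circles to the left of contralateral libraries as blue squares, and sham as grey triangles. Horizontal bars are means and error bars SD of 3 libraries; an SD bar that would pass below 0 is cut off at 0. Scn10a reaches 3.54 CPM on the contralateral side and 1.37 CPM on the ipsilateral side at 24 h, and Scn11a reaches 1.21 CPM on the ipsilateral side.

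Among the calcium channel pores, the R-type gene Cacna1e and the T-type gene Cacna1i fell, the T-type gene Cacna1h was higher at 1 time, and the L-type, N-type and P/Q-type genes did not pass against the contralateral side. Cacna1e, the R-type pore of dendrites and nerve terminals, had 397, 385 and 436 CPM in ipsilateral cortex at 24 h, against 520.1, 643 and 524 CPM in contralateral cortex (log2 fold change -0.47, SE 0.14, adjusted p = 0.0221). At 12 h it had 507, 519.6 and 457 CPM in ipsilateral and 821, 581 and 630.0 CPM in contralateral cortex (log2 fold change -0.45, SE 0.14, adjusted p = 0.0361). All ipsilateral libraries were the lower ones at both times, and the highest contralateral library was replicate 1 at 12 h and replicate 2 at 24 h. Cacna1e at 12 h did not pass without ipsilateral replicate 1 or 3 or contralateral replicate 1 or 3 (adjusted p from 0.0514 to 0.224). Cacna1e at 24 h did not pass without ipsilateral replicate 1 or 2 or contralateral replicate 2 (adjusted p from 0.0574 to 0.114).

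Cacna1i, a low-threshold pore of slow kinetics, had 132, 133 and 122 CPM in ipsilateral cortex at 24 h, against 175, 168 and 173 CPM in contralateral cortex (log2 fold change -0.42, SE 0.11, adjusted p = 0.00657). At 6 h it had 165, 152 and 181 CPM in ipsilateral and 227, 213 and 228 CPM in contralateral cortex (log2 fold change -0.42, SE 0.11, adjusted p = 0.0118), and at 12 h it did not pass (adjusted p = 0.149). The groups were separate at both times that passed. Cacna1i at 6 h did not pass without ipsilateral replicate 2 or contralateral replicate 3 (adjusted p from 0.0541 to 0.11). Its call at 24 h ended without all libraries of surgery day 2 or day 3 (adjusted p = 0.0959 and 0.0576). Cacna1h, another low-threshold pore, had 78.1, 57.1 and 70.1 CPM in ipsilateral cortex at 12 h, against 61.3, 42.4 and 42.5 CPM in contralateral cortex (log2 fold change 0.49, SE 0.15, adjusted p = 0.0267).

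Sham cortex had 58.3, 68.4 and 70.8 CPM of Cacna1h, so the ipsilateral mean at 12 h was close to the sham mean and the contralateral mean was below it. Ipsilateral against sham gave a log2 fold change of 0.06 (adjusted p = 0.861) and contralateral against sham -0.43 (adjusted p = 0.341). Cacna1h at 12 h did not pass without ipsilateral replicate 1 or 3 or contralateral replicate 2 or 3 (adjusted p from 0.078 to 0.178). At 6 and 24 h its log2 fold changes, ipsilateral against contralateral, were -0.13 and 0.11.

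The rest of the alpha1 genes did not pass against the contralateral side. The level of Cacna1a, the P/Q-type pore of fast transmitter release, at 24 h was 178, 159.9 and 155 CPM in ipsilateral and 171, 183 and 188 CPM in contralateral cortex (log2 fold change -0.13). That of Cacna1b, the N-type pore, was 199.7, 169 and 168 CPM in ipsilateral and 202, 228 and 192 CPM in contralateral cortex (log2 fold change -0.21). Both overlapped at 24 h. At 12 h Cacna1b was close to the threshold (log2 fold change -0.33, adjusted p = 0.052): it passed with surgery day as a block (0.0354), in DESeq2 (0.0472) and under 4 other settings (adjusted p from 0.0208 to 0.0461).

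The L-type pores Cacna1c and Cacna1d, which couple depolarization to gene expression, had 131, 119 and 128 CPM and 79.9, 72.1 and 67.9 CPM in ipsilateral cortex at 24 h, against 113, 139.5 and 137 CPM and 60.9, 73.8 and 77.0 CPM in contralateral cortex. Their log2 fold changes were -0.04 and 0.05. Cacna1g, a T-type pore of burst firing, had 82.9, 75.5 and 97.1 CPM in ipsilateral and 80.7, 77.9 and 99.5 CPM in contralateral cortex at 24 h (log2 fold change -0.01), although both were below its sham level of 102, 111 and 135 CPM. Cacna1f and Cacna1s had 0.930 and 1.18 CPM in ipsilateral and 0.761 and 0.812 CPM in contralateral cortex at 24 h and passed at no time.

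**Figure D5:**
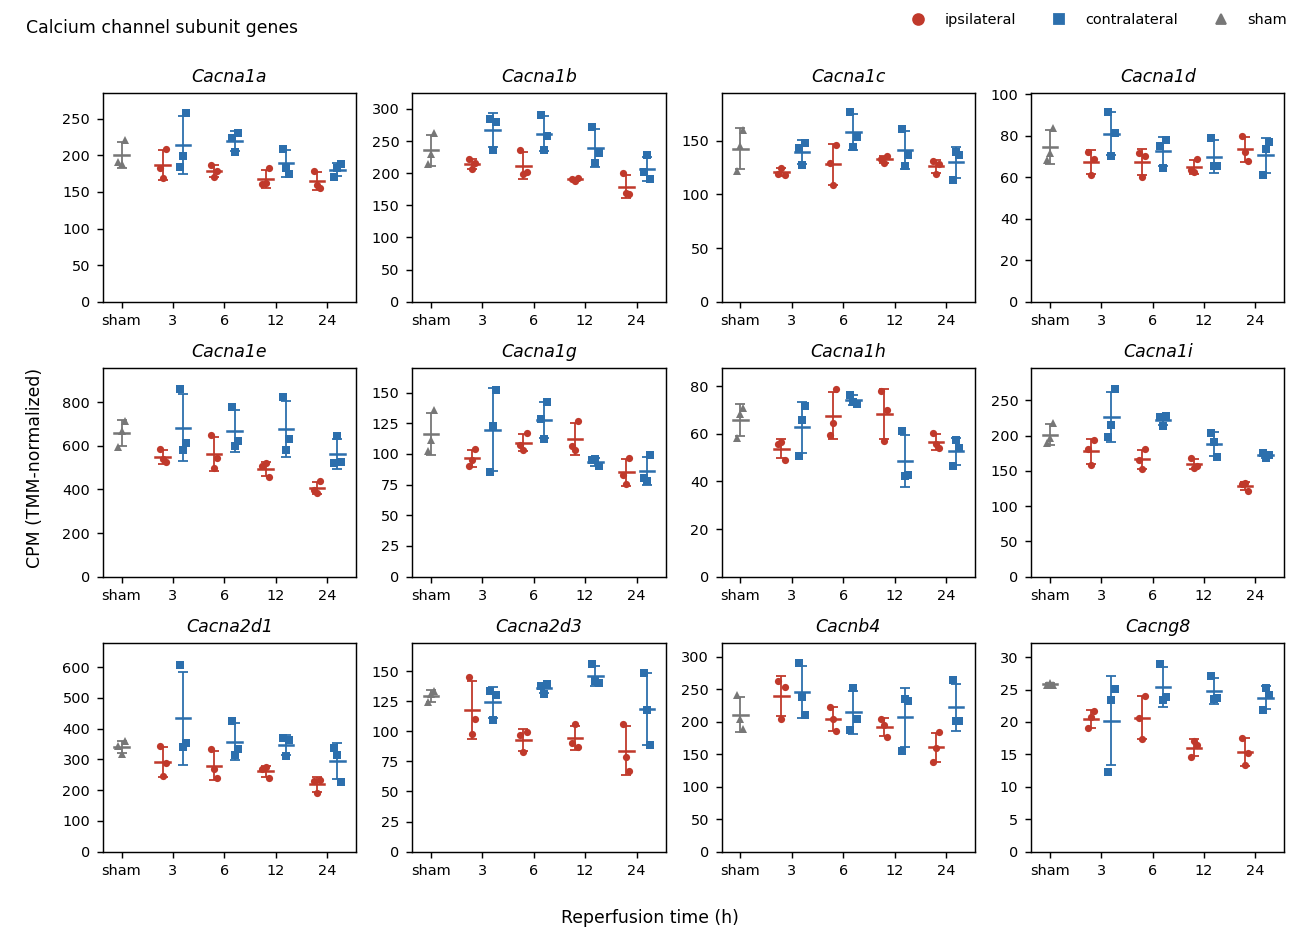
CPM (vertical, from 0) of 12 calcium channel subunit genes in sham cortex and by reperfusion time in hours (horizontal), with ipsilateral libraries as red circles to the left of contralateral libraries as blue squares, and sham as grey triangles. Horizontal bars are means and error bars SD of 3 libraries. Ipsilateral Cacna1e, Cacna1i, Cacnb4 and Cacng8 lie below contralateral libraries at 24 h, while Cacna1c and Cacna1d overlap.

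Each class of accessory calcium channel subunit had 1 member that fell. Among the alpha2delta genes it was Cacna2d3, with 96.8, 82.4 and 99.6 CPM in ipsilateral and 138, 131 and 139 CPM in contralateral cortex at 6 h (log2 fold change -0.55, SE 0.16, adjusted p = 0.0311). At 12 h it had 90.5, 106 and 87.2 CPM in ipsilateral and 156, 142 and 140.3 CPM in contralateral cortex (log2 fold change -0.63, SE 0.16, adjusted p = 0.00953). At 24 h it had 106, 78.7 and 66.6 CPM in ipsilateral and 149, 118 and 88.6 CPM in contralateral cortex (log2 fold change -0.50, SE 0.16, adjusted p = 0.0283). The groups were separate at 6 and 12 h and overlapped at 24 h. Cacna2d3 at 6 h did not pass without ipsilateral replicate 1 or 2 or contralateral replicate 1 or 2 or 3 (adjusted p from 0.0642 to 0.181). Cacna2d3 at 12 h did not pass without ipsilateral replicate 1 or 3 (adjusted p from 0.0519 to 0.0572). Cacna2d3 at 24 h did not pass without ipsilateral replicate 2 or 3 or contralateral replicate 1 or 2 (adjusted p from 0.06 to 0.234). It did not pass either with only the compared groups in the fit (adjusted p = 0.168). Cacna2d1, the alpha2delta subunit bound by gabapentin, had 229.6, 192 and 234 CPM in ipsilateral and 338, 315 and 227 CPM in contralateral cortex at 24 h and missed the threshold (log2 fold change -0.42, adjusted p = 0.0989). With surgery day as a block it passed at 12 and 24 h (adjusted p = 0.0492 and 0.0332), as it did without both libraries that stood apart (0.0491 and 0.0447).

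Cacna2d2 and Cacna2d4 passed at no time, with log2 fold changes at 24 h of -0.01 and 0.02. Among the beta genes it was Cacnb4, with 138, 159.7 and 183 CPM in ipsilateral cortex at 24 h, against 263, 201 and 202 CPM in contralateral cortex (log2 fold change -0.47, SE 0.16, adjusted p = 0.0352). An RNA on the opposite strand, A430018G15Rik, overlaps 16.0% of the exon bases of Cacnb4, and with the strand setting of the counting not given, reads of both cannot be told apart. Cacnb4 at 24 h did not pass without ipsilateral replicate 1 or 2 or contralateral replicate 1 (adjusted p from 0.0694 to 0.201). Without both libraries that stood apart its adjusted p was 0.117. Cacnb3, the beta subunit most abundant per length, was separate at 24 h but missed the threshold (log2 fold change -0.32, adjusted p = 0.224), Cacnb1 missed it too (log2 fold change -0.33, adjusted p = 0.158), and the log2 fold change of Cacnb2 was -0.00.

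Among the gamma genes it was Cacng8, an AMPA receptor auxiliary protein of the forebrain, with 17.5, 13.3 and 15.2 CPM in ipsilateral cortex at 24 h, against 21.8, 25.3 and 24.1 CPM in contralateral cortex (log2 fold change -0.63, SE 0.17, adjusted p = 0.00982). It was also lower at 12 h, with 14.5, 17.1 and 16.5 CPM in ipsilateral and 27.1, 23.6 and 23.7 CPM in contralateral cortex (log2 fold change -0.63, SE 0.17, adjusted p = 0.0137). Both times were without overlap. Cacng8 at 12 h did not pass without ipsilateral replicate 1 or contralateral replicate 1 (adjusted p from 0.0613 to 0.0932). Cacng8 at 24 h did not pass without ipsilateral replicate 2 (adjusted p = 0.055), nor without all libraries of surgery day 2 or day 3 (adjusted p up to 0.223). Its neighbour on chromosome 7, Cacng7, was separate at 24 h with means of 32.7 ± 1.96 CPM in ipsilateral and 41.8 ± 3.63 CPM in contralateral cortex but missed the threshold (adjusted p = 0.0942). It passed with surgery day as a block (0.0319) and without all libraries of surgery day 1 (0.0425).

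Cacng2 (stargazin) and Cacng3, both AMPA receptor regulators, had log2 fold changes of 0.04 and -0.25 at 24 h. Cacng5 was higher in all 3 ipsilateral libraries, 15.2, 11.8 and 9.97 CPM against 6.50, 8.78 and 6.62 CPM in contralateral libraries, without passing (log2 fold change 0.75, adjusted p = 0.221). Cacng1 of skeletal muscle and Cacng6 reached at most 0.443 CPM in any library, and Cacng4 did not pass at any time.

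Against sham cortex the ipsilateral falls were broader at 24 h and took in more calcium channel genes. At 3 h 0 of 39 members passed, where 0.243% of all genes did; 2 had an unadjusted p under 0.05, and DESeq2 called 0. At 6 h 2 fell, Scn2b and Scn8a, where 1.09% of all genes fell and 5.03% rose. At 12 h 7 fell, Cacna1i, Cacng8, Scn1a, Scn2a1, Scn2b, Scn3b and Scn8a, where 3.72% of all genes fell and 6.58% rose. Scn8a at 6 h and Cacna1i at 12 h did not pass with RLE size factors (adjusted p = 0.0523 and 0.0544) or with no filter on low counts (0.0648 and 0.0567). At 24 h 16 fell and 2 rose, where 10.9% of all genes fell and 11.3% rose. The median log2 fold change of members was -0.12, -0.15, -0.20 and -0.39 at 3, 6, 12 and 24 h, beside -0.00, -0.01, -0.00 and 0.03 over all tested genes.

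The largest fall among members past the threshold at 24 h was that of Scn2b, with 195, 174 and 139 CPM in ipsilateral and 298, 335 and 304 CPM in sham cortex (log2 fold change -0.88, SE 0.12, adjusted p = 1.45e-05). Scn8a had 416, 402 and 336 CPM in ipsilateral and 597, 579 and 661 CPM in sham cortex (log2 fold change -0.67, SE 0.10, adjusted p = 5.59e-05). Cacna1e had 397, 385 and 436 CPM in ipsilateral and 596, 666 and 714 CPM in sham cortex (log2 fold change -0.70, SE 0.14, adjusted p = 0.00104). The ipsilateral libraries of these genes lay below all 3 sham libraries.

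Genes that passed against sham at 24 h but not against the contralateral side were Cacna1b (-0.40, adjusted p = 0.0123), Cacna1g (-0.45, 0.0324), Cacna2d1 (-0.64, 0.0124), Cacnb1 (-0.59, 0.00966), Cacnb3 (-0.57, 0.0263) and Cacng3 (-0.40, 0.0311), each with its log2 fold change and adjusted p. Each of these 6 calls ended when 1 library was left out. Cacna1b at 24 h did not pass without ipsilateral replicate 2 or 3 or sham replicate 3 (adjusted p from 0.0509 to 0.0744). Cacna1g at 24 h did not pass without ipsilateral replicate 1 or 2 or sham replicate 2 or 3 (adjusted p from 0.0561 to 0.175). Cacna2d1 at 24 h did not pass without ipsilateral replicate 2 (adjusted p = 0.0531). Cacnb1 at 24 h did not pass without ipsilateral replicate 1 (adjusted p = 0.0655). Cacnb3 at 24 h did not pass without ipsilateral replicate 1 or 2 or sham replicate 1 or 2 or 3 (adjusted p from 0.0531 to 0.106). Cacng3 at 24 h did not pass without ipsilateral replicate 1 or 3 or sham replicate 1 or 3 (adjusted p from 0.0839 to 0.145). For Cacng3 it also ended with only the compared groups in the fit (0.0528) and without both libraries that stood apart (0.0521). Both comparisons share the ipsilateral libraries, and whether their effects differ is the comparison of contralateral with sham cortex, in which none of these genes passed. Their contralateral means at 24 h were 207, 86.0, 293, 68.3, 110.3 and 35.4 CPM, against sham means of 235, 116, 341, 81.8, 131 and 39.4 CPM in the same order, so each contralateral mean was the lower one. Of the 39 members, 28 had a contralateral estimate below sham at 24 h, a count not made over all genes. The median over the 39 members was -0.13 on the log2 scale, beside 0.00 over all tested genes.

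The 2 genes that rose against sham at 24 h were Scn11a (log2 fold change 2.05, SE 0.61, adjusted p = 0.0163) and Scn10a, with 0.92 on the log2 scale. The pan-neuronal markers fell in number as against the contralateral side, 7 of 10 with a median of -0.55, and their part in the channel genes was not tested. With surgery day as a block, Cacna2d3 passed at 6 and 12 h (adjusted p = 0.036 and 0.0356), Cacna1e at 12 h (0.0378) and Scn4b at 24 h (0.0471), all lower in ipsilateral cortex. The falls counted at 6 h went to 0 without any 1 sham library or without ipsilateral replicate 2, and to 1 without ipsilateral replicate 1 or 3; those at 12 h went to 4 without sham replicate 3 or ipsilateral replicate 1 or 3. At 24 h, without all libraries of surgery day 2 or of day 3, 7 members fell, and the rises went to 0 without sham replicate 1 or ipsilateral replicate 3 and to 1 without sham replicate 3 or ipsilateral replicate 1.

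Whether the ipsilateral to contralateral difference itself changed over the 4 times was tested with an F-test on the 4 effects. Of 39 members, 0 passed in edgeR's quasi-likelihood test, where 1.34% of all genes did; 5 had an unadjusted p under 0.05 (Cacna1h, Scn2b, Scn1a, Cacng8 and Scn11a), and DESeq2 called 0, with 6 under 0.05. The smallest adjusted p was 0.146 for Cacna1h, and those of Scn2b and Scn1a were 0.193 and 0.206. Without contralateral replicate 1 at 3 h 1 member passed, Cacna1h (adjusted p = 0.0455), and without it and ipsilateral replicate 1 at 24 h 3 passed.

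Within the ipsilateral side, 24 h against 3 h was lower for Cacna1e, Cacna1i, Cacna2d3, Cacnb4, Scn1a, Scn2a1, Scn2b, Scn3b and Scn8a, with Scn2b the largest of them (log2 fold change -0.67, SE 0.12, adjusted p = 0.000463) and Scn1a next (log2 fold change -0.56, SE 0.11, adjusted p = 0.00124) among the sodium channel genes. No member other than Scn10a passed in that contrast on the contralateral side.

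The stretches before the first listed start sites differed in base composition among members that fell together. RefSeq promoters (build GRCm38.p6) were matched for 30 of the 40 members, and the 250 bases before the start site were read. Of 14 members that passed at any time against the contralateral side, 11 had a RefSeq promoter, and 6 of these windows held no exon base of GENCODE. The windows of 5 of the 6 are shown, 4 of genes that fell and that of Scn11a, which rose. They lie at chr2:65620519-65620768 on the plus strand for Scn2a, chr15:100870395-100870644 on the plus strand for Scn8a, chr15:80286988-80287237 on the plus strand for Cacna1i, chr14:29721865-29722114 on the minus strand for Cacna2d3 and chr9:119825457-119825706 on the minus strand for Scn11a. Each runs 5′ to 3′, and capitals mark the GC box GGGCGG or the core TGACG of a cyclic AMP response element (CRE), on either strand.
Scn2a: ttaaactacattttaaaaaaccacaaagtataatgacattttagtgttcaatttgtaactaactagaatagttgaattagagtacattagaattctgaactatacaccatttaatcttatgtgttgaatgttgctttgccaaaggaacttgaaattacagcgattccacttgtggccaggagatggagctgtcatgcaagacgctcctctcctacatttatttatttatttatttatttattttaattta
Scn8a: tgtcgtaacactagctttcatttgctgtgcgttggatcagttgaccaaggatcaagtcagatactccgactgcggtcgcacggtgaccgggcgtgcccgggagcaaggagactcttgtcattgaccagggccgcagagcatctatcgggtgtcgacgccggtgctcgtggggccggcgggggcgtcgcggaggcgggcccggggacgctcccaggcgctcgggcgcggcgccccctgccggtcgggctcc
Cacna1i: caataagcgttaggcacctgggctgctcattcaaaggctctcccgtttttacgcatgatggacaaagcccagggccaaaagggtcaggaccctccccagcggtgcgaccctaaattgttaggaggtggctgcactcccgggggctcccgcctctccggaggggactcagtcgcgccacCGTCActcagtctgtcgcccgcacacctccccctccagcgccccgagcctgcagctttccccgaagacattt
Cacna2d3: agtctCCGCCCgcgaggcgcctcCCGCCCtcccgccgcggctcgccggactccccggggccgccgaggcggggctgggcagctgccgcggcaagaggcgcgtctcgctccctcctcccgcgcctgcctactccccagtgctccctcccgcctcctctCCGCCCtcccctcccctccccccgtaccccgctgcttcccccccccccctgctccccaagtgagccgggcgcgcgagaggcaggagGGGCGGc
Scn11a: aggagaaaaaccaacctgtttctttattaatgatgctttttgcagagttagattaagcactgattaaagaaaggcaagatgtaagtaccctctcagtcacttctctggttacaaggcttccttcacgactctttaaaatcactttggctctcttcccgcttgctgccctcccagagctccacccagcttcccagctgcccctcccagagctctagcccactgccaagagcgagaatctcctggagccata

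Where RefSeq lists several promoters for a gene, the first listed was used. In these windows Scn2a had a GC content of 29.6% and 2 CpG, and Scn8a 68.0% and 30 CpG. The second listed promoters of both genes had 53.2% and 9 CpG each, so this contrast holds for the first listed ones only. The window shown for Scn8a also lies inside the Scn8a gene of GENCODE, which begins before it, at base 100869858. Cacna2d3 had 80.0% and 4 GC boxes, and Cacna1i 62.4% and 1 TGACG. Scn11a had 48.0% and 3 CpG and no match. The median GC content was 57.4% over members and 52.0% over all promoters. GGGCGG was found in 12 of 30 member promoters (40.0%) and in 32.9% of all 27025 promoters, and TGACG in 5 of 30 (16.7%) and in 17.9% of all.

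The AP-1 site TGANTCA was in 1 of 30 and in 6.87% of all, the TATA box TATAAA in 1 of 30 and in 13.0% of all. TTCAGCACC, the left arm of the RE1 element bound by the neuronal repressor REST, was in 0 of 30 and in 0.285% of all. All motifs were sought on both strands, and no match means only that these letters are not in this window. The window of Scn10a held TGACG 3 times, beginning 85, 30 and 10 bases before the start site, and 0.696% of all promoters held it at least 3 times. TGACG was chosen after its letters were seen, and as GENCODE annotates that stretch as exon it is not printed.

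Genes whose products bind, anchor or read out these channels were counted in lists, ipsilateral against contralateral. Of all tested genes, 0.249% passed at 3 h. At 6, 12 and 24 h 2.14%, 4.3% and 9.36% of them fell and 5.85%, 7.94% and 9.74% rose. The RGK GTPases, small proteins that inhibit high-voltage-activated calcium channels, were higher on the ipsilateral side: 1, 3, 2 and 2 of 4 rose at 3, 6, 12 and 24 h and 0 fell. Rrad had 3.34 ± 1.58 CPM in ipsilateral and 0.764 ± 0.0785 CPM in contralateral cortex (log2 fold change 2.13, SE 0.35, adjusted p = 0.00293) at 3 h. At 6 h it had 7.82 ± 0.290 CPM in ipsilateral and 0.751 ± 0.0774 CPM in contralateral cortex (log2 fold change 3.37, SE 0.35, adjusted p = 3.09e-07). Gem had 7.91 ± 2.58 CPM in ipsilateral and 1.02 ± 0.133 CPM in contralateral cortex (log2 fold change 2.94, SE 0.38, adjusted p = 1.16e-05) at 6 h. Rem2, known to be induced by activity, had 5.49 ± 0.378 CPM in ipsilateral and 2.45 ± 1.29 CPM in contralateral cortex (log2 fold change 1.16, SE 0.34, adjusted p = 0.0334). Rrad was the only gene of these lists that passed at 3 h.

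Fibroblast growth factor homologous factors, which bind sodium channel tails, fell at 24 h in 3 of 4. Fgf14, linked to spinocerebellar ataxia, had 46.8 ± 1.12 CPM in ipsilateral and 75.2 ± 5.25 CPM in contralateral cortex (log2 fold change -0.69, SE 0.13, adjusted p = 0.00083) and was lower at 12 h also. Of 9 genes that anchor sodium channels at axon initial segments and nodes, 1, 4 and 3 fell at 6, 12 and 24 h. Cntnap1, a paranodal adhesion protein, had 138 ± 12.2 CPM in ipsilateral and 207 ± 5.13 CPM in contralateral cortex (log2 fold change -0.58, SE 0.10, adjusted p = 0.00021) at 24 h. The sodium leak channel complex of Nalcn fell in 2 of 4 at 12 and at 24 h. Unc80, a part of it, had 421 ± 12.6 CPM in ipsilateral and 557 ± 44.0 CPM in contralateral cortex (log2 fold change -0.40, SE 0.09, adjusted p = 0.00186) at 24 h.

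Of 10 presynaptic partners of calcium channels 1 rose at 6 h (Erc1), 1 fell at 12 h (Pclo) and 3 fell at 24 h (Erc2, Apba1 and Pclo). Of 11 genes whose products read the calcium signal, such as CaM kinases and calcineurin, 0 passed at 3, 6 or 12 h and 10 fell at 24 h. Camk2a, the abundant kinase of excitatory synapses, had 848 ± 79.0 CPM in ipsilateral and 1260.4 ± 70.2 CPM in contralateral cortex (log2 fold change -0.57, SE 0.12, adjusted p = 0.00117). Of these 11 genes, the median log2 fold change at 24 h was -0.58, near the -0.60 of the pan-neuronal markers. Of 2 ubiquitin ligases 0 passed at any time, and of 4 alpha2delta-like and STAC genes 1 rose, Stac at 6 h.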

How the data were processed

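The values are the counts per gene that the authors deposited for 27 libraries. The submitters' processing notes name STAR 2.5.0a, the build mm10, featureCounts 1.4.3-p1 and edgeR, the last without a version. Per the labels' protocols, total RNA was depleted of ribosomal RNA and made into TruSeq libraries. The annotation, strand setting and handling of reads with several matches are not stated in the sources used here.

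Of 22340 genes, filterByExpr with minimum counts of 10 per library and 15 in total kept 18087. A model of edgeR 4.0.16 (TMM scaling, 9 group means, robust quasi-likelihood F-test) was fitted to all libraries, and p-values were adjusted by Benjamini and Hochberg over the tested genes, with 0.05 as threshold. The common biological coefficient of variation was 0.175, which with 3 libraries a group sets the precision. The fit was tested on simulated counts. Counts by unadjusted p and by direction within surgery days were made for members only, without the share of all genes. CPM are TMM-scaled, with SD, and RPKM used union exon lengths of GENCODE M21 (GRCm38, the build mm10). Promoters came from RefSeq GRCm38.p6.

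The replicate number marks the surgery day, per the series' design text, so it pairs the libraries by label. Deviations from group means correlated by 0.0475 on average between libraries of 1 day (108 pairs, 31 above 0.1), and by -0.0237 between those of distinct days (216 pairs, 15 above 0.1). The fit has no block, and the block was run as an alternative. The other alternatives were RLE size factors, no filter, a filter of 1 CPM in 3 libraries, abundant RNAs left out, only the compared groups, DESeq2 1.42.0, and libraries or days left out. Contrasts of 24 h against 3 h within a side were added after values were seen. The members, the partner and marker lists and the alternatives were chosen with earlier results of these data known. Values per library are given for members that passed against the contralateral side and for the main brain alpha subunits, and up to 4 partner genes per list are named by smallest p. Results for a few genes are not reported here.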

Additional observations from a re-analysis of the deposited data

Results flagged for a closer look

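Scn10a was on opposite sides of sham at the first and the last time on the ipsilateral side. Its log2 fold change against sham was -1.13 at 3 h, with all 3 ipsilateral libraries below all sham libraries, and 0.92 at 24 h, with all 3 above them. The change between these times passed in a contrast added after the values were seen (24 h against 3 h on the ipsilateral side, log2 fold change 2.05, adjusted p = 0.000376 in edgeR's quasi-likelihood F-test). It rests on 12, 12 and 13 ipsilateral counts at 3 h and 50, 41 and 79 at 24 h.

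Cacna1h was on opposite sides of sham on the contralateral side. Its log2 fold change against sham was 0.17 at 6 h, with all 3 contralateral libraries above all sham libraries, and -0.32 at 24 h, with all 3 below them. Neither passed the test, and the difference between these effects was not tested.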

How the results depend on the processing

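No call changed direction under any of the alternatives tried, 17 for each call and 16 for the 2 of Scn11a, which the filter of 1 CPM in 3 libraries left untested. The calls that passed under all 17 were, ipsilateral against contralateral, Scn1a and Scn2a1 at 12 h and Scn1a, Scn2b and Scn8a at 24 h, and against sham at 24 h Cacna1e, Cacna1i, Scn2a1, Scn2b and Scn8a. Every other call ended when all libraries of at least 1 surgery day were left out. With 1 library or 1 surgery day left out, the members that fell against the contralateral side numbered 0 to 6, 4 to 10 and 3 to 14 at 6, 12 and 24 h, and those that rose 0 to 1 at each of these times. Against sham 0 to 5, 0 to 9 and 7 to 18 fell at 6, 12 and 24 h and 0 to 2 rose at 24 h. Contralateral against sham, 0 to 1 fell and 0 to 1 rose at 12 h and 0 to 1 rose at 24 h. The test of differing effects called 0 to 1.

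With no filter, 2 rose against the contralateral side at 12 h, the added gene being Scn4a, and 1 fell against sham at 6 h. With the filter of 1 CPM in 3 libraries, 0 rose against the contralateral side and 1 against sham at 24 h, since Scn11a was not tested. With only the compared groups in the fit, 2 rose against the contralateral side at 24 h, and against sham 4 fell at 6 h, 15 fell and 1 rose at 12 h, and 1 rose at 24 h. With RLE size factors 1 fell against sham at 6 h. Without both libraries that stood apart, 4 fell against sham at 6 h and 12 at 12 h, and the test of differing effects called 3. The cause of these shifts was not tested beyond what is said of Scn4a and Scn11a.

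With surgery day as a replicate block, 0, 6, 11 and 14 members fell against the contralateral side at 3, 6, 12 and 24 h, 0, 3, 9 and 17 fell against sham, the rises were the same in number, and the test of differing effects called 0. The block ended no call. Depth limits the rare genes: Scn10a, Scn11a, Cacna1f, Cacna1s, Cacng1 and Cacng6 had sham levels of about 1 CPM or less, and small changes in them were not detectable.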
